A study of Mus musculus with 32 samples.

Results

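Vinclozolin-exposed fetal oocytes were compared with oocytes of oil-treated litters on 6 of the 32 arrays of the series. The members were chosen by their sample titles, which name 3 arrays G1R VZ F and 3 arrays G1R Oil F. G1R marks germ cells that went through reprogramming in the exposed G1 fetus. The fetuses had the genotype FVBxOG2, and both groups carried the OG2 transgene, in which the Oct4 promoter drives EGFP. Dams of the VZ group received 100 mg/kg of vinclozolin per day in corn oil by gavage from 12.5 dpc, and dams of the oil group received the oil alone. EGFP-positive cells were sorted from the fetal gonads at 17.5 dpc. Other oocyte groups in the series came from dams given BPA (0.2 mg/kg per day, 3 arrays) or DEHP (750 mg/kg per day, 2 arrays), and prospermatogonia of the oil and VZ groups were measured on 3 arrays each. The sources used here do not say whether the arrays of a group came from separate litters, so the tests measure the spread between these arrays. In the study's sample list the array numbers ascend from the oil to the VZ arrays, so place in that sequence and treatment cannot be told apart.

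Vinclozolin is a fungicide whose breakdown products block androgen action. At the fetal stage studied here, female germ cells are in the prophase of the first meiotic division, and many are lost before follicles form around the survivors. Male germ cells of the same age are arrested prospermatogonia that lay down DNA methylation. The comparison asked whether direct exposure in utero altered the transcripts of the oocytes.

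Each of the 35556 probes, which stand for groups of short oligonucleotides on the array, gave a log2 signal. A difference is always a difference of group means on this log2 scale, VZ minus oil unless another pair is named. A probe was called dim where its mean over the 6 arrays was at or below 6.7, which held for 12536 probes (35.3%). Sample median signals of the 11 female arrays ran from 7.29 to 7.34, and the correlations between them over all probes from 0.9846 to 0.9928. VZ array 1 had the lowest median correlation with the other female arrays, 0.9867, and the other VZ arrays had 0.9903 and 0.9908. The number of arrays limits the precision: the median standard error of the VZ minus oil difference was 0.123.

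The sorted cells carried the transcripts of fetal oocytes in both groups. Figla, which switches on zona pellucida genes, had signals of 11.01, 10.99 and 11.02 in oil and 10.87, 11.11 and 10.94 in VZ oocytes, against a mean of 7.54 in oil prospermatogonia. Nobox, another transcription factor of the oocyte, had 11.94, 11.85 and 11.90 in oil and 11.80, 11.99 and 11.92 in VZ oocytes, against 8.30 in oil prospermatogonia. Not all 21 oocyte genes measured went this way. The zona pellucida gene Zp3 had 6.37 to 6.69 in the 6 arrays, against 8.73 in oil prospermatogonia. For Taf4b, Nlrp14 and Oosp1, oil oocytes minus oil prospermatogonia was -0.28, -0.32 and -0.17. The list mean was 8.668 to 9.025 in oil and 8.861 to 9.007 in VZ arrays, against 7.463 in oil prospermatogonia. Oil oocytes and oil prospermatogonia differed at 19312 probes (54.3%) at an adjusted p under 0.05 (limma). The sample labels describe the female cells as primordial germ cells, and a protocol text shared by all samples speaks of prospermatogonia. Of the genes that define prospermatogonia, Dnmt3l, a partner of the de novo methyltransferases, had 5.92 to 6.22 in the 6 arrays, against 11.81 in oil prospermatogonia. Utf1, a chromatin factor of early germ cells, had 6.09 to 6.69 against 11.85, and Piwil4, which binds piRNAs, 7.47 to 7.80 against 11.31. Other genes of that list, such as Mov10l1 (12.43 to 12.82), Piwil2 and Tdrd9, were high in the oocytes too, and the list mean was 8.22 to 8.30 in oil and 8.13 to 8.27 in VZ arrays, against 9.67 in oil prospermatogonia. The Y-linked gene Eif2s3y had 6.30 in VZ array 2 and 4.24 to 4.71 in the other 5 arrays, against 9.47 in oil prospermatogonia. The rest of the Y-linked list disagreed. Zfy1 and Kdm5d, at 6.245 and 6.028 in VZ array 2, were highest there among the 6 arrays. Uty, Usp9y, Zfy2 and Sry, at 5.287, 4.564, 5.891 and 7.976 in VZ array 2, were lowest there among the VZ arrays. Uba1y, also Y-linked, has 4 probes, which disagreed. On the brightest, VZ arrays 1, 2 and 3 had 6.77, 7.83 and 6.43, and the 8 other female arrays 6.10 to 7.03. On another they had 5.54, 7.62 and 6.99, and the other arrays 5.82 to 6.75. The remaining 2 probes held identical values. On them VZ array 2, at 6.18, lay within the range of the 8 other female arrays, 5.899 to 6.365. VZ arrays 1 and 3, at 6.511 and 6.519, lay above that range.

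No probe passed the test between VZ and oil oocytes. Of 35556 probes, 0 (0.0%) reached an adjusted p under 0.05 in limma, and the smallest adjusted p was 0.328. The test without moderated variances also called 0 probes. At an unadjusted p under 0.05 there were 2118 probes (5.96%), of which 982 (2.76%) were higher and 1136 (3.19%) lower in VZ. Of all probes, 31822 (89.5%) differed by less than 1.2-fold and 34 differed by at least 2-fold. Among the 2118, 231 differed by at least 1.5-fold, or 0.65% of all probes. Of the 982 higher probes, 339 were dim (34.5%). Of the 1136 lower probes, 718 were dim (63.2%), beside 35.3% of all probes.

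With 1 probe per gene, 19938 genes could be named, and the median difference over them was -0.0024. At an unadjusted p under 0.05, 2.6% of them were higher and 3.49% lower in VZ. The 3 VZ arrays lay above all oil arrays for 1192 genes (5.98%) and below all of them for 1302 genes (6.53%). Genes are named below from the 12 with the smallest p in each direction among those whose groups did not overlap. Their values describe these arrays and none of them passed the test.

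Nap1l1, which encodes a nucleosome assembly protein that carries histones H2A and H2B, had the smallest p. It lies at chr10:111472882-111498150 (GRCm38.p6). Its signals were 9.68, 9.66 and 9.69 in oil and 10.18, 10.09 and 10.18 in VZ oocytes. All 3 VZ arrays were above all 3 oil arrays, and both groups were tight. The difference was 0.47 (SE 0.09, 1.39-fold), with a limma adjusted p of 0.328. Of 23 measured histone chaperone genes, a list drawn up with the value of Nap1l1 known, Nap1l1 was the only 1 with an unadjusted p under 0.05. Its relative Nap1l4 had a difference of 0.17 and Supt16, a subunit of FACT, 0.18.

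Mest, a paternally expressed imprinted gene of a hydrolase-like protein, showed a larger difference. Its signals were 7.59, 7.45 and 7.31 in oil and 8.53, 8.28 and 8.45 in VZ oocytes. The groups were separated by more than their own ranges, and the difference was 0.97 (SE 0.20, 1.96-fold, limma adjusted p 0.407). In oil prospermatogonia the mean of Mest was 10.14. Gpc4, a cell surface heparan sulphate proteoglycan, had 6.88, 7.17 and 6.86 in oil and 7.52, 7.47 and 7.37 in VZ oocytes, a difference of 0.48 (SE 0.10). Fstl1, a secreted follistatin-like glycoprotein, had 6.92, 6.80 and 6.93 in oil and 7.50, 7.21 and 7.37 in VZ oocytes, a difference of 0.48 (SE 0.11). The groups did not overlap for either gene. Msi2, an RNA-binding regulator of translation, differed by 0.31, F11r, a tight junction adhesion molecule, by 0.43, and Pip4k2c, a phosphoinositide kinase, by 0.37.

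The X-linked gene Armcx3, which encodes a protein of the outer mitochondrial membrane, was read by 3 probes with differences of 0.64, 0.39 and 0.19. Its VZ arrays lay above the oil arrays on all 3 probes, and all 3 were dim. Cmip had 2 probes, which disagreed: 1 had a difference of 0.33 and the other, whose groups overlapped, 0.07. The olfactory receptor gene Olfr993, E330013P04Rik and Rtf2, a gene of replication termination, complete the 12, with differences of 0.58, 0.53 and 0.45. The limma adjusted p of the 12 ran from 0.328 to 0.653, and 2 of them were dim. In BPA-exposed cells, which share no array with VZ or oil, 9 of these 12 genes had a higher mean in males than in females. The same held for 6 of the 12 genes lower in VZ that are described next, and for 49.7% of all named genes. Of the 518 genes higher in VZ at an unadjusted p under 0.05, it held for 53.3%.

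Of the 12 genes lower in VZ oocytes, 9 were dim, beside 2 of the 12 higher genes and 31.8% of all named genes. Among them were 4 olfactory receptor genes (Olfr600, Olfr1012, Olfr1057 and Olfr867), which sensory neurons of the nose express, beside 1 among the higher genes. Such genes made up 5.15% of all named genes and were 938 of the 6342 dim ones. Their differences ran in size from 0.38 to 0.53, with limma adjusted p from 0.407 to 0.653. The 3 that were not dim were Slc46a3, Fbxl16 and Tmeff2. Slc46a3, a lysosomal transporter, had 6.87, 7.15 and 7.18 in oil and 6.51, 6.84 and 6.62 in VZ oocytes, with a gap between the groups of only a few hundredths. Fbxl16, an F-box protein, had 7.25, 7.49 and 7.48 in oil and 7.09, 6.66 and 6.91 in VZ oocytes, a difference of -0.52 (SE 0.12). Tmeff2, a transmembrane protein with follistatin-like domains, had 7.32, 7.56 and 7.48 in oil and 7.06, 6.74 and 7.19 in VZ oocytes, a difference of -0.46 (SE 0.11). The dim genes Prss28, Psg-ps1, Krtap19-1, 9830107B12Rik and Tmem139 make up the rest.

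**Figure D1:**
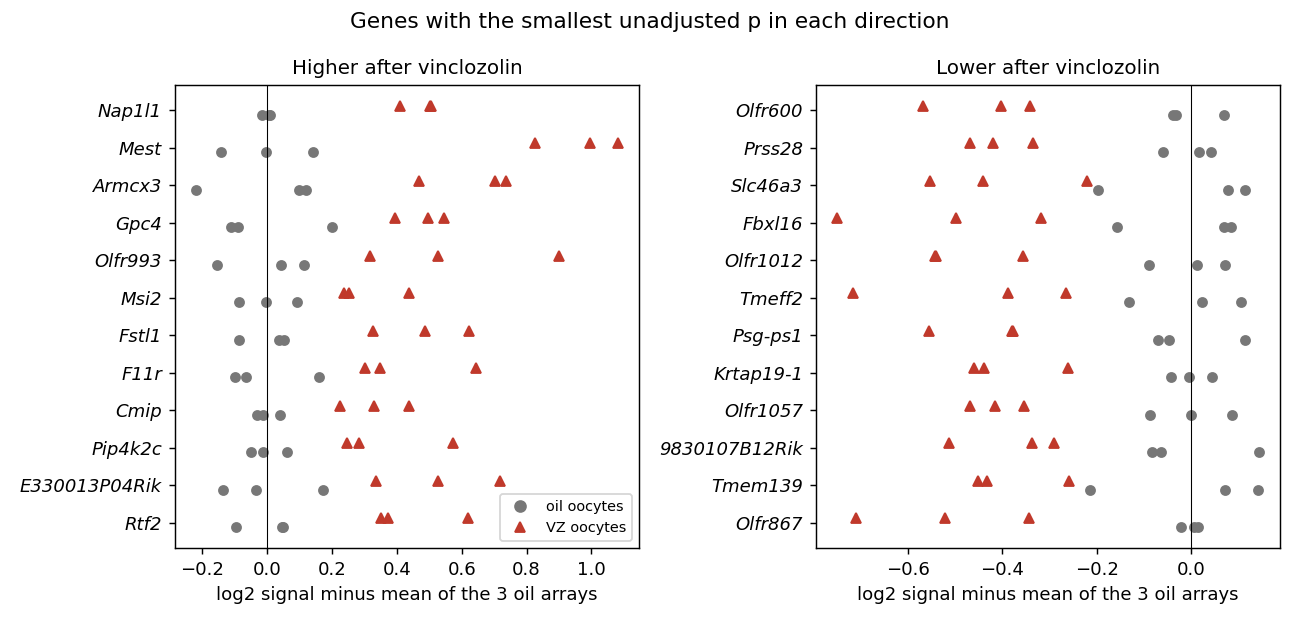
Each point is the log2 signal of 1 array minus the mean of the 3 oil arrays, for the 12 genes with the smallest p in each direction among genes whose groups did not overlap (grey circles, oil oocytes; red triangles, VZ oocytes). Mest shows the largest difference, 0.97, and the separation of the groups is how the genes were chosen, and none passed the test.

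Since VZ is an antiandrogen, the promoters of these 24 genes were searched for the hexamer AGAACA or its reverse complement TGTTCT, a 6-base site of steroid receptors, in the 250 bases before each start (RefSeq, GRCm38.p6, both strands). Sequences were at hand for 10 of the 12 higher and 11 of the 12 lower genes. The hexamer stood in 1 of the 10 higher genes (Rtf2) and in 2 of the 11 lower genes (Prss28 and 9830107B12Rik). Over all 27025 genes with a promoter it stood in 4912. Counted by promoter, it stood in 1 of 15 of the higher set (6.67%) and 2 of 11 of the lower set (18.2%). Over all genes it stood in 16.1% of 32851 promoters. The windows of Mest and Gpc4, genes with large differences and no hexamer, and of Rtf2, whose hexamer is in capitals, are shown 5′ to 3′ to let the 3 be compared. They are chr6:30733256-30733505 (plus strand), chrX:52164924-52165173 (minus strand) and chr2:172440328-172440577 (plus strand). A further annotated start of Mest also lacked the hexamer.
Mest: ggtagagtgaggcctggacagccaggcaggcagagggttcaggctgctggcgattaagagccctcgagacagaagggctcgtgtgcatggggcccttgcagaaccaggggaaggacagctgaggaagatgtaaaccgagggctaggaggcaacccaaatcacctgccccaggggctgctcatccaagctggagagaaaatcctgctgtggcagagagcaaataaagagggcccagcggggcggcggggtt
Gpc4: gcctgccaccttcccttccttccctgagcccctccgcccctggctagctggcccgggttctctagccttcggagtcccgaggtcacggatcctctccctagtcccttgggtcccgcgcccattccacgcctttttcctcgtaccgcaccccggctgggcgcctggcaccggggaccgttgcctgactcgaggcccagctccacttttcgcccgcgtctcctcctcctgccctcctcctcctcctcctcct
Rtf2: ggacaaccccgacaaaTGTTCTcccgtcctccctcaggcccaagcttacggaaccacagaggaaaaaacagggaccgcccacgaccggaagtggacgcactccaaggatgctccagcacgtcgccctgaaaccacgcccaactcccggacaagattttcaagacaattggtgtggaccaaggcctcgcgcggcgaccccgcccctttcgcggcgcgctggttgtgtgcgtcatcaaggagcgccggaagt
The GC content of these windows was 60.8% for Mest, 68.4% for Gpc4 and 61.6% for Rtf2, and the hexamer of Rtf2 begins 234 bases before its start. A match is a description of letters, not a binding site.

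Genes of androgen action did not pass the test. Of 21 genes measured, 0 were called, 3 were higher and 0 lower at an unadjusted p under 0.05, and the median difference was 0.06, beside -0.0024 over all named genes, of which 2.6% were higher and 3.49% lower. The 3 were Odc1, Fkbp5 and Tubb3. Odc1, the rate-limiting enzyme of polyamine synthesis, had 10.71, 10.56 and 10.44 in oil and 10.92, 10.76 and 10.79 in VZ oocytes, a difference of 0.26 (SE 0.08). Fkbp5, a cochaperone of steroid receptors, had 8.93, 8.82 and 8.85 in oil and 9.27, 9.11 and 9.04 in VZ oocytes, a difference of 0.27 (SE 0.10). The VZ arrays lay above the oil arrays for both genes. Without VZ array 1 the median of the list was -0.0022. Hsd17b3, which makes testosterone from androstenedione, was dim in oocytes, at 5.74 to 6.03 in all 11 female arrays. Of 19 genes of estrogen and progesterone action, none had an unadjusted p under 0.05, and the median was -0.02.

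The oocyte programme showed no called gene. Of 21 oocyte genes measured, only Kit had an unadjusted p under 0.05. Kit, the receptor by which oocytes receive Kit ligand, had 12.04, 11.71 and 11.84 in oil and 12.12, 12.13 and 11.98 in VZ oocytes, and the groups overlapped. The median over the 21 was 0.002. Of 14 general germ cell genes, 0 had an unadjusted p under 0.05, and Ddx4 and Dazl, RNA-binding proteins of the germ line, had differences of 0.11 (95% interval -0.07 to 0.29) and -0.01 (-0.17 to 0.16). Of 32 meiotic genes, 0 had an unadjusted p under 0.05, and the median was -0.002. Mlh3, which resolves crossovers, had 10.11, 10.13 and 10.11 in oil and 10.39, 10.23 and 10.24 in VZ oocytes, a difference of 0.17 (SE 0.08). Hormad1, an axis protein of meiotic chromosomes, had a difference of -0.16 (95% interval -0.38 to 0.05).

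Among genes of the oocyte reserve and of oocyte loss, 20 were measured and 0 were called, with a median of 0.06. At an unadjusted p under 0.05, 3 were higher and 0 lower, beside 2.6% and 3.49% of all named genes. Cdkn1b, which encodes the cell cycle inhibitor p27, had 7.88, 7.51 and 7.50 in oil and 8.21, 8.19 and 8.06 in VZ oocytes, a difference of 0.52 (SE 0.17, limma adjusted p 0.716). Mcl1, a survival factor of the Bcl2 family, had 10.45, 10.10 and 10.18 in oil and 10.69, 10.48 and 10.49 in VZ oocytes, a difference of 0.31 (SE 0.11). Kitl, the Kit ligand made by somatic cells of the gonad, had 6.92, 7.19 and 6.76 in oil and 7.58, 7.37 and 7.43 in VZ oocytes, a difference of 0.50 (SE 0.23). The VZ arrays lay above the oil arrays for all 3. Foxo3, which holds primordial follicles dormant, had a difference of 0.15 (95% interval -0.04 to 0.33). The list mean was 8.471 to 8.518 in oil and 8.543 to 8.659 in VZ arrays, without overlap. In DEHP array 1 it was 8.680, above every VZ array.

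None of 19 genes of DNA methylation and demethylation and none of 31 histone methylation genes had an unadjusted p under 0.05, and their medians were 0.05 and 0.02. Dnmt1, the maintenance methyltransferase, had a difference of 0.14 (95% interval -0.02 to 0.31) and Dnmt3a, a de novo methyltransferase, 0.13 (-0.07 to 0.33). Kmt2c, a methyltransferase of histone H3K4, had a difference of -0.03 (95% interval -0.20 to 0.14), and Ehmt2, a methyltransferase of H3K9, 0.11 (-0.08 to 0.30).

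Of 38 imprinted genes measured, 0 were called, with a median of 0.01. At an unadjusted p under 0.05, 6 were higher and 2 lower, beside 2.6% and 3.49% of all named genes. Besides Mest, the higher ones were Slc38a4, Plagl1, Peg10, Peg3 and Igf2, all of which are known for expression from the paternal allele in the soma. Slc38a4, an amino acid transporter, had 6.36, 6.42 and 6.58 in oil and 6.76, 6.74 and 6.73 in VZ oocytes, and was dim. Plagl1, a zinc finger transcription factor, had 7.36, 7.16 and 7.76 in oil and 7.96, 7.80 and 7.88 in VZ oocytes, a difference of 0.45 (SE 0.19). The differences of Peg10, Peg3 and the growth factor gene Igf2 were 0.41, 0.41 and 0.40. The lower ones were Usp29 (-0.29) and Dio3 (-0.26), both also paternally expressed. How many of the 38 genes share that trait was not counted, so it does not set the higher genes apart. The means of Mest, Slc38a4 and Plagl1 in oil prospermatogonia, 10.14, 10.26 and 9.50, were above those in oocytes. The list mean was 7.962 to 8.065 in oil and 8.090 to 8.143 in VZ arrays, without overlap. In DEHP array 1 it was 8.207, above every VZ array.

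Several genes of gonadal somatic cells had higher signals in VZ oocytes. In bulk RNA, fewer cells of a type and less RNA per cell cannot be told apart, nor can more cells and more RNA per cell. Of 23 mesenchymal genes measured, 0 were called, and the median was 0.06. At an unadjusted p under 0.05, 4 were higher and 0 lower, beside 2.6% and 3.49% of all named genes. The mean of the list was 7.38 to 7.42 in the oil arrays and 7.52 to 7.53 in the VZ arrays, so the groups did not overlap, and it was 8.32 in oil prospermatogonia. It was 7.35 to 7.44 in the BPA arrays and 7.62 in DEHP array 1, which was above every VZ array. Vim, the intermediate filament vimentin, had 8.69, 8.83 and 8.56 in oil and 9.46, 9.21 and 9.47 in VZ oocytes, a difference of 0.68 (SE 0.21, limma adjusted p 0.701). Sparc, a matrix glycoprotein, had 8.21, 8.24 and 7.87 in oil and 8.95, 8.82 and 8.74 in VZ oocytes, a difference of 0.73 (SE 0.35). Postn and Col6a1, both of the extracellular matrix, had differences of 0.31 and 0.32. The defining collagen genes of the list had differences of -0.01 (Col1a1, 95% interval -0.40 to 0.38), 0.13 (Col1a2) and 0.08 (Col3a1). The medians without oil array 2, oil array 3 and VZ array 2 were 0.04, 0.11 and 0.09.

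Of 23 granulosa and pregranulosa genes, 0 were called, and the median was 0.08. At an unadjusted p under 0.05, 5 were higher and 0 lower, beside 2.6% and 3.49% of all named genes. Amhr2, the receptor of anti-Müllerian hormone, had 7.04, 7.18 and 7.04 in oil and 7.54, 7.49 and 7.52 in VZ oocytes, a difference of 0.43 (SE 0.12, limma adjusted p 0.653). Fst, follistatin, had 7.28, 7.68 and 7.31 in oil and 7.88, 7.71 and 7.72 in VZ oocytes, a difference of 0.34 (SE 0.10). Lgr5, a receptor of R-spondins in the ovarian surface and cords, differed by 0.40 and Runx1 by 0.24, and Kitl, described above, is the fifth. Foxl2 and Wnt4, which define the ovarian somatic fate, had differences of 0.07 and -0.07. The mean of the list was 7.05 to 7.27 in oil and 7.23 to 7.30 in VZ arrays, and the ranges overlapped. In DEHP array 1 it was 7.41, above every VZ array.

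Epithelial genes had a list mean of 7.35 to 7.52 in oil and 7.54 to 7.56 in VZ arrays. At an unadjusted p under 0.05, 2 of 13 were higher (Epcam and Aldh1a2), beside 2.6% of all named genes. The keratins Krt8 and Krt18 had differences of 0.09 and -0.07. The list mean was 7.35 to 7.47 in the BPA arrays and 7.71 and 7.45 in the DEHP arrays, so here too DEHP array 1 was above every VZ array. Aldh1a1, a retinaldehyde dehydrogenase, had 7.54, 7.65 and 7.37 in oil and 8.23, 8.29 and 8.18 in VZ oocytes, a difference of 0.71 with a standard error of 0.49. That standard error rests on the spread pooled over all 11 groups. Sertoli, Leydig and endothelial lists had medians of -0.06, 0.07 and 0.00, and the defining Leydig genes Cyp11a1, Cyp17a1 and Hsd3b1 were dim. Of the endothelial genes, Pecam1 was higher (0.18) and Tek lower (-0.26) at an unadjusted p under 0.05. Of 16 prospermatogonial genes, 0 were higher and 3 lower at that threshold, beside 2.6% and 3.49% of all named genes. The 3 were Dmrt1 (-0.26), Gfra1 (-0.21) and Utf1 (-0.31). The Y-linked list had a mean of 6.04 in VZ array 2, 5.55 and 5.76 in the other VZ arrays and 5.56 to 5.79 in oil arrays. The part of these markers in the differences of Vim, Mest, Kitl and Cdkn1b, whose means in oil prospermatogonia were all above those in oil oocytes, was not tested.

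**Figure D2:**
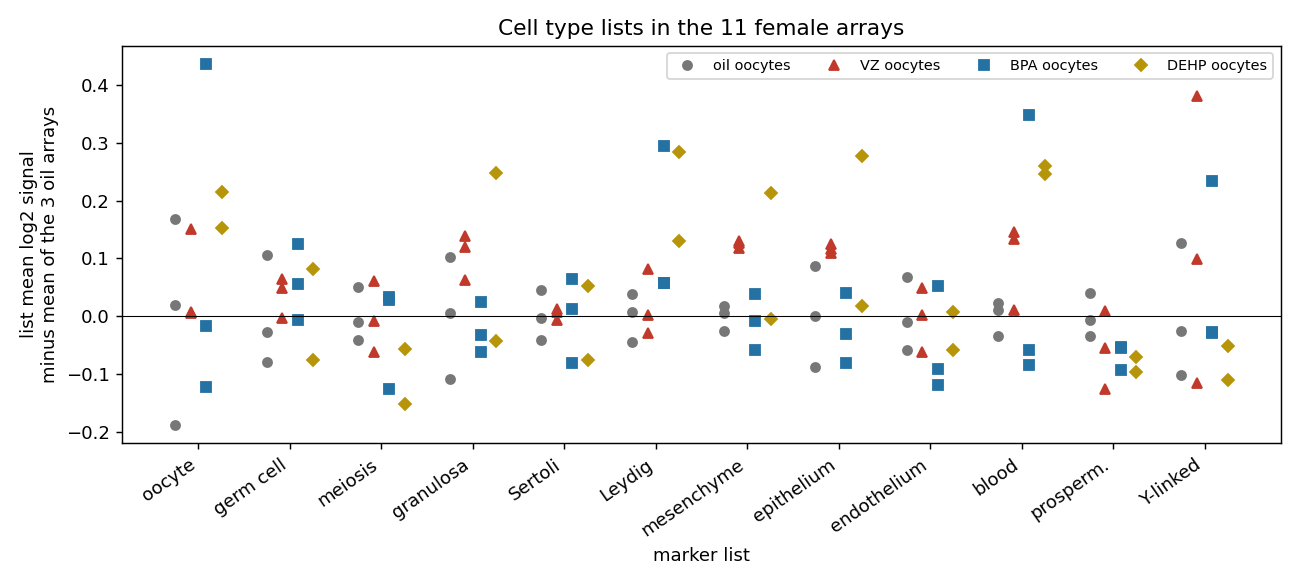
Each point is the mean log2 signal of a marker list in 1 female array minus the mean of the 3 oil arrays, by list (horizontal axis) and treatment (circles oil, triangles VZ, squares BPA, diamonds DEHP). The mesenchymal and epithelial lists lie higher in all VZ arrays than in any oil array, while oocyte, germ cell and meiotic lists overlap. The same separation held for the imprinted and oocyte reserve lists, which are not drawn, so it is not particular to somatic lists. DEHP array 1, at 7.62 and 7.71 on these lists, lies above every VZ array in both.

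Cpa3, the carboxypeptidase of mast cell granules, differed by the most of the named genes, but against dim signals in oil. Its signals were 5.47, 5.32 and 5.31 in oil and 8.04, 6.34 and 7.79 in VZ oocytes. All VZ arrays were above all oil arrays, but they spanned a wide range. The difference was 2.02 (SE 0.57, 95% interval 0.85 to 3.19, limma adjusted p 0.653). Cpa3 was dim over the 6 arrays, so no fold is given. Tpsb2, a mast cell tryptase, had 6.85, 6.78 and 6.95 in oil and 7.49, 7.01 and 7.37 in VZ oocytes, a difference of 0.43. Mcpt4, a mast cell chymase, had a difference of 0.33 and its groups overlapped. These were the only 3 of 20 blood cell genes with an unadjusted p under 0.05, and the list median was -0.04. Over all named genes, 2.6% were higher and 3.49% lower at that threshold. High signals of Cpa3 also occurred in other groups, with 8.92, 5.09 and 5.45 in the BPA arrays and 8.19 and 8.97 in the DEHP arrays. Tpsb2 was high in the same arrays, at 7.92 in BPA array 1 and 7.48 and 7.80 in the DEHP arrays. In prospermatogonia the mean of Cpa3 was 5.39 in oil and 5.35 in VZ.

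Small nucleolar, Cajal body and U RNA genes were looked at after 4 of them appeared among the 10 largest differences. These 4 were Snord118, Snora3, Snora73a and Rnu3a, so the count of such genes is a description chosen on these arrays. Many small nucleolar RNAs guide the modification of ribosomal RNA, but not all RNAs of this set are guides. Of 59 genes named by symbol, 50 (84.7%) had lower means in VZ than in oil oocytes, beside 50.7% of all named genes. At an unadjusted p under 0.05, 8 (13.6%) were lower, beside 3.49% of all named genes, 0 were higher, and 0 were called. The median difference was -0.20, beside -0.002 over all named genes. The mean of the 59 was 9.06 to 9.14 in the oil arrays and 8.74 to 8.95 in the VZ arrays, so the groups did not overlap. It was 8.90 to 9.08 in BPA and 8.78 to 9.03 in DEHP oocytes, ranges that overlap that of VZ. Snora3 had 12.17, 12.54 and 12.15 in oil and 10.66, 11.86 and 11.56 in VZ oocytes, a difference of -0.93 (SE 0.36). Snord118, the U8 RNA, had 10.96, 11.03 and 10.85 in oil and 10.27, 9.78 and 9.96 in VZ oocytes, a difference of -0.94 (SE 0.50). In prospermatogonia the median difference of the 59 genes, VZ minus oil, was -0.46, beside -0.013 over all named genes. There, 33 of the 59 were lower and 2 higher at an unadjusted p under 0.05. Over all 19938 named genes, 2055 were lower and 1792 higher.

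Other groups held few genes beyond the unadjusted threshold, which 2.6% (higher) and 3.49% (lower) of all named genes passed, and none called. Of 34 cell cycle genes, 3 were higher (Mcm7, Top2a and Ccnd3) and Ccne2 was lower. Ccne2, the cyclin E2 of S phase entry, had 9.63, 9.79 and 9.76 in oil and 9.50, 9.45 and 9.47 in VZ oocytes, a difference of -0.25 (SE 0.10). Of 25 genes of xenobiotic metabolism, only the glutathione transferase gene Gsta4 was higher at that threshold (0.34). Gstm1 had a larger difference, 0.67, with a 95% interval of -0.10 to 1.44. Of 20 stress genes only the heat shock gene Hsph1 was higher (0.21), and of 22 immediate early genes only the phosphatase gene Dusp1 (0.32). Of 25 ribosomal protein genes 2 were lower, Rps19 (-0.29) and Rpl8 (-0.20). Of 35 genes of oxidative phosphorylation 2 were higher (Atp5a1 and Sdha) and 1 lower (Atp5g1). None of 16 genes of BMP signalling reached the threshold, and Id1, a target of BMP that blocks differentiation factors, had a difference of -0.23 (95% interval -0.49 to 0.04). Of 11 reference genes Tubb5 and Sdha were higher, by 0.31 and 0.22, and of 6 noncoding hosts of small nucleolar RNAs Snhg15 was lower (-0.34).

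VZ oocytes were then set against the other oocyte groups. Neither VZ against BPA (0 of 35556, 0.0%) nor VZ against DEHP (0, 0.0%) gave a probe at an adjusted p under 0.05, while 1745 (4.91%) and 1205 (3.39%) had an unadjusted p under 0.05. Against the mean of the oil, BPA and DEHP groups, 1 probe passed (0.00281%), that of Nap1l1. The difference was 0.48 (SE 0.07, limma adjusted p 0.0283). Its signals in BPA were 9.55, 9.69 and 9.88 and in DEHP 9.45 and 9.77, so all 3 VZ arrays lay above the 8 other female arrays. The oil arrays enter this comparison as they do that with oil alone. The call was kept in 8 of 18 alternatives and lost in 10, in which the difference still ran from 0.43 to 0.52. It was lost when only the female arrays were fitted (adjusted p 1.0) and under the replicate block (0.0635). It was also lost without any 1 of oil arrays 1, 2 and 3 (adjusted p 0.0596, 0.0701 and 0.0621), BPA array 1 (0.0514), DEHP array 1 (0.155) and VZ arrays 1, 2 and 3 (0.319, 0.166 and 0.347). Without VZ array 1 the called probe was instead 1 of the 4 probes of the Y-linked gene Uba1y, and without BPA array 2 a probe with no listed gene was called beside Nap1l1.

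Mest had 7.38, 7.78 and 7.77 in BPA oocytes but 8.98 and 7.87 in DEHP oocytes, and VZ minus DEHP was -0.01 (SE 0.22). Fstl1 and Vim were higher in DEHP array 1 (7.59 and 9.85) than in any VZ array. Gpc4 lay at 7.15 to 7.21 in BPA and at no more than 7.35 in DEHP oocytes, so all VZ arrays were above all others by a small margin. Of the 12 higher genes, 2 had all VZ arrays above every other female array (Nap1l1 and Gpc4), and of the 12 lower genes 3 had all VZ arrays below them (Olfr1012, Krtap19-1 and 9830107B12Rik). Against the mean of the other groups, 1511 probes (4.25%) had an unadjusted p under 0.05. After Nap1l1 the smallest p of the higher genes were those of Ttll8 (0.36), Gpc4 (0.34), Odc1 (0.26), Spef2 (0.52) and Snap25 (0.39). The lower ones were Tsga13 (-0.47), Krtap19-1 (-0.37), Phkg1 (-0.34), Popdc3 (-0.38), Gm11780 (-0.50) and Olfr1012 (-0.37). The values in parentheses are these differences on the log2 scale, and apart from Nap1l1 none passed the test.

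**Figure D3:**
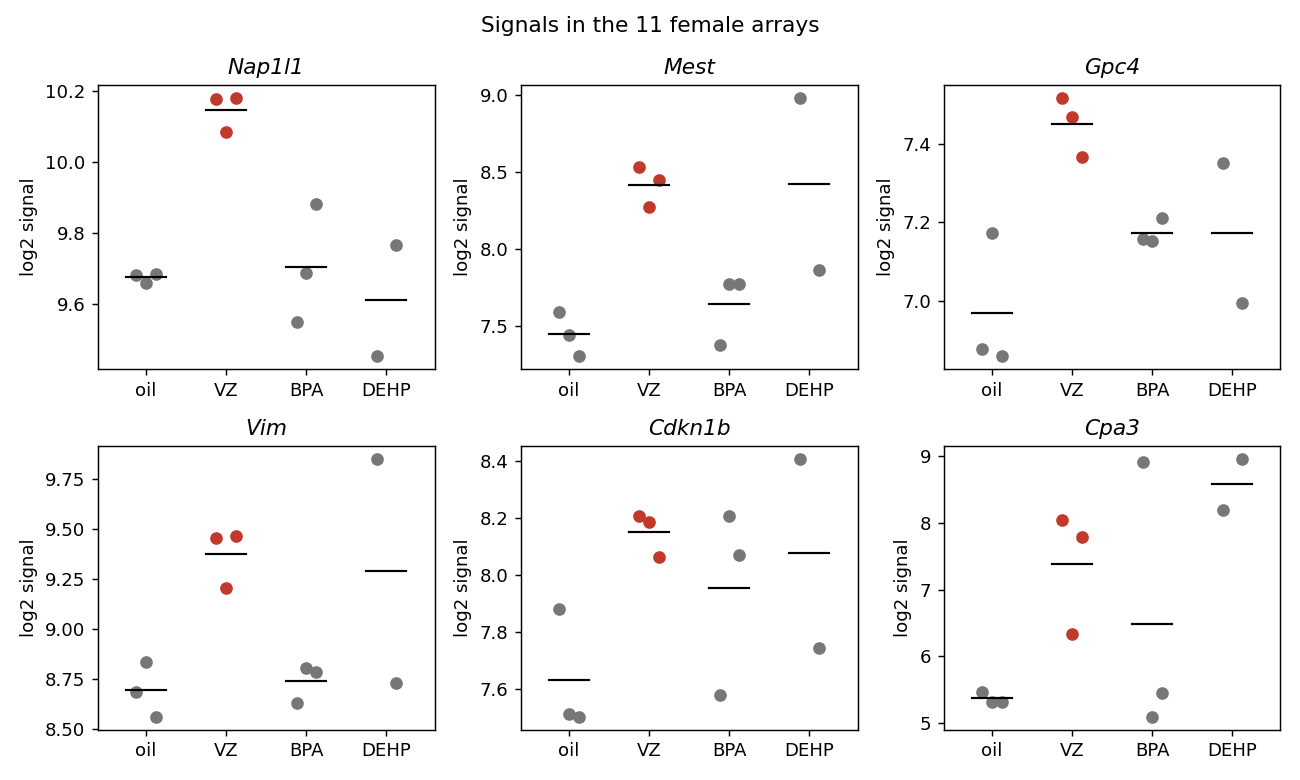
Log2 signals of 6 genes in the 11 female arrays by treatment of the dam (points, single arrays; bars, group means; red, VZ; DEHP has 2 arrays). Nap1l1 is above 10 only in the VZ arrays, while Mest, Vim, Cdkn1b and Cpa3 reach or pass the VZ signals in at least 1 BPA or DEHP array.

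The same exposure was also measured in prospermatogonia, whose 6 arrays are separate from those of the oocytes. There, 2 probes (0.00562%) passed the test and 6493 (18.3%) had an unadjusted p under 0.05. Over the 19938 named genes, the VZ differences of oocytes and prospermatogonia had a Pearson r of 0.327. This is a description across genes, which are not independent replicates, and both comparisons share the place of oil and VZ in the array list. The sources used here do not say whether male and female cells came from the same litters. Of 1214 genes with an unadjusted p under 0.05 in oocytes, 279 had one in prospermatogonia too, which is 23% of the former and 7.25% of the 3847 of the latter, and 244 of the 279 had the same direction (87.5%). Over all 19938 named genes, 19.3% had an unadjusted p under 0.05 in prospermatogonia and 62.3% had the same direction in both sexes. Among them were Mest (0.97 and 0.42), Slc38a4 (0.29 and 0.40), Odc1 (0.26 and 0.20) and Mcl1 (0.31 and 0.25). Of the 12 higher genes, 11 had the same sign in prospermatogonia, and of the 12 lower genes 8, beside the 62.3% of all named genes.

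Whether the response differed between the sexes was tested by the interaction, the VZ minus oil difference of oocytes less that of prospermatogonia. Of 35556 probes, 0 (0.0%) passed, 2207 (6.21%) had an unadjusted p under 0.05, and the test without moderated variances called 1, Dnah17. Nap1l1 had a difference of 0.47 in oocytes and 0.00 in prospermatogonia, and the interaction was 0.47 (SE 0.13, limma adjusted p 0.797). Dnah17, an axonemal dynein gene, had 7.26, 7.18 and 7.28 in oil and 7.37, 7.38 and 7.36 in VZ oocytes, and a difference of -0.33 in prospermatogonia (interaction 0.46, limma adjusted p 0.631). Grb2, an adaptor of receptor tyrosine kinases, differed by 0.22 in oocytes and -0.42 in prospermatogonia. Ccne2 differed by -0.25 in oocytes and 0.33 in prospermatogonia, Cenpq, a centromere protein gene, by -0.30 and 0.56, and Apela, a ligand of the apelin receptor, by -0.50 and 0.53. None of these interactions passed the test. Hsd17b3 had a difference of 0.05 in oocytes and 1.19 in prospermatogonia, with an interaction of -1.14 (SE 0.61, limma adjusted p 0.798).

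The genes of both directions were also described by their sex difference in another treatment. In the BPA-exposed cells, 436 of the 696 genes with an unadjusted p under 0.05 and lower signals in VZ (62.6%) were higher in males than in females, beside 49.7% of all named genes and 53.3% of the 518 that were higher in VZ. Of the 696, 65.9% were dim, beside 31.8% of all named genes. Dim was defined on oocyte arrays alone, and the share higher in males among dim genes was not computed. The 62.6% can therefore not be told apart from the part of dim genes.

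**Figure D4:**
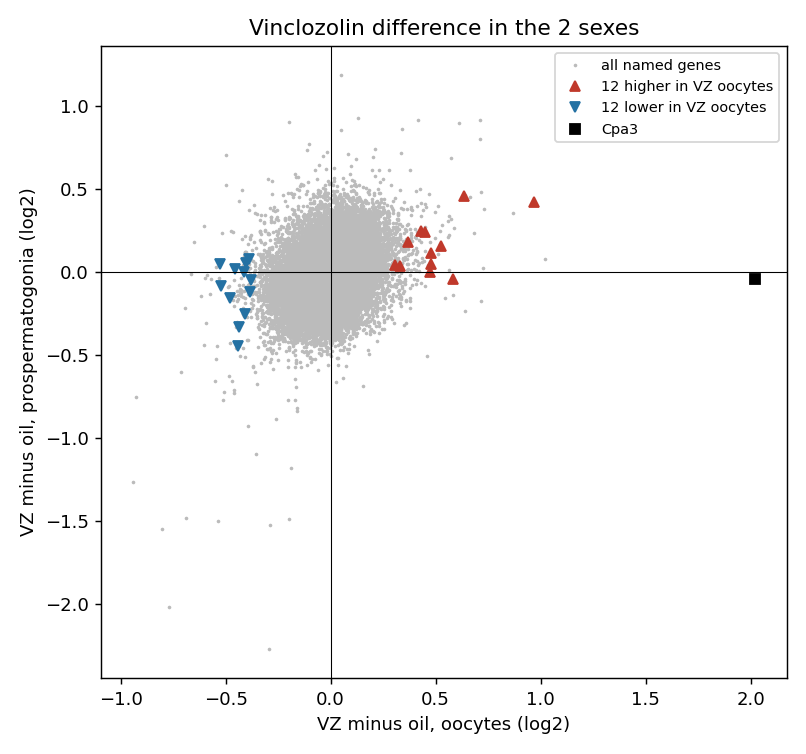
Difference VZ minus oil (log2) of each named gene in oocytes (horizontal) and prospermatogonia (vertical), with the 12 genes higher (red) and 12 lower (blue) in VZ oocytes and Cpa3 (black square). Cpa3 lies at 2.02 in oocytes and near 0 in prospermatogonia, and the Pearson r over all named genes is 0.327.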

How the data were processed

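The 32 arrays were Affymetrix Mouse Gene 1.0 ST arrays hybridized with total RNA of sorted germ cells. The authors normalized them by robust multichip averaging (RMA) in Partek, whose version is not given in the sources used here, and the deposited values are log2 signals (2.59 to 14.82). RMA aligns the distributions of all arrays, so a change shared by most transcripts would not be seen. The arrays carry no counts, and their number limits the precision. Each array was grouped by its title.

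A limma 3.58.1 model in R 4.3.3 estimated the means of the 11 groups for each of 35556 probes on all 32 arrays, with moderated variances (residual degrees of freedom 21, prior 3.67). Benjamini-Hochberg adjustment ran over all probes, and 0.05 was the threshold. The model was tested on simulated data. Intervals are 95%. Of the probes, 21789 name a single gene, 1621 name several and 12146 are not listed. For 21698 of the first the symbol was taken from RefSeq (GRCm38.p6) through the Entrez identifier, and 91 kept the platform's symbol. For a gene with several probes the one with the highest mean over all arrays was used. Promoter windows are the 250 bases before a start in RefSeq.

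The arrays compared, the 28 gene lists and the rule for named genes were chosen with earlier results of these data known. The rule named, among genes whose groups did not overlap, the 12 with the smallest p in each direction, up to 4 genes of each list with the smallest p and the defining genes of cell type lists, Kmt2c, Ehmt2 and Hsd17b3, and 6 genes in each direction of the interaction and of the comparison with the other oocytes. Uba1y, Peg10, Peg3, Igf2, Dio3, Zp3, Taf4b, Nlrp14, Oosp1 and the small nucleolar, Cajal body and U RNA genes were named after their values were seen. The same holds for Kdm5d, Zfy1 and Zfy2. Alternatives were an unmoderated contrast, only the arrays compared, only female arrays, a filter on dim probes, single-gene probes, cyclic loess, quality weights for arrays, a block on the replicate number, and each array left out in turn. Numbers shared by oil and VZ arrays were not treated as pairs in the main model. Python 3.11.15 and matplotlib 3.10.9 were used.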

Additional observations from a re-analysis of the deposited data

How the results depend on the processing

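The count of 0 probes between VZ and oil oocytes was the same under each of the 14 alternative fits, those without 1 array included, while a threshold of an unadjusted p under 0.05 gave 231 probes with at least 1.5-fold and 2118 with the lower of the study's fold thresholds. The interaction gave 0 calls except without moderated variances, where it gave 1, and it gave 0 without any 1 array. Against the mean of the other oocyte groups, the count was 0 with only the female arrays and 0 with the replicate block, and 0 to 2 without 1 array. The replicate number as a block left 0 calls against oil (2060 probes at an unadjusted p under 0.05, beside 2118) and 0 in the interaction. The correlations of deviations between oil and VZ arrays of the same number were -0.044, 0.038 and -0.086. For arrays of different numbers they ran from -0.107 to 0.145. They gave no sign of pairing by number, but with 3 arrays a group they cannot exclude a batch shared by number. Beyond these, 1102 values of 80 probes against oil kept their sign and stayed uncalled. Of the list medians under the alternatives, 379 moved by less than the spread between arrays, and the other 13 belong to 7 lists. The Sertoli median of -0.06 was 0.02 without dim probes. Cyclic loess moved the median over all probes from -0.0023 to 0.0021. The differences of Nap1l1 and Mest against oil ran from 0.44 to 0.50 and from 0.90 to 1.04, and that of Cpa3 from 1.70 to 2.55. The standard error of 0.123 for the median probe and 3 arrays a group limit what could be called. The causes of the changes above were not tested.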
